A study of Mus musculus with 6 samples.

Results

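Complement is a cascade of serum and membrane proteins that marks particles for uptake and lyses cells. A set of 9 of its genes was chosen here, and 8 of the 9 were found among the 22180 genes with a probe set of their own: Cd55, C1qa, C1qb, C1qc, C4b, Cfb, Cfp and Serping1. C3 was not analysed here. The probe sets are those whose annotation names exactly 1 symbol; each of the 8 genes had 1 such probe set, so the rule of keeping the one with the highest mean level over the 6 arrays decided nothing. The genes were picked for their place in the cascade with earlier results of these data known, and Cd55 was chosen by its log2 change with FSL-1 against M-CSF.

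C1q, made of the chains of C1qa, C1qb and C1qc, recognises antibody complexes and dying cells and starts the classical route through C4 and C2. Factor B (Cfb) and properdin (Cfp) form and stabilise the C3-cleaving enzyme of the alternative route. The C1 inhibitor (Serping1) blocks the first proteases in the fluid phase, and Cd55, a lipid-anchored membrane protein also called decay-accelerating factor, takes C3-cleaving enzymes on a cell's own surface apart. Most serum complement comes from the liver, but macrophages are the main source of C1q and also make properdin.

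The data are 6 arrays of cultured mouse macrophages, 2 per group. Bone marrow cells of C57Bl/6 mice were grown in M-CSF (20 ng/ml) for 5 days, replated and cultured a further 6 days with FSL-1 (20 ng/ml) and nutlin-3a (10 µM), with FSL-1 (20 ng/ml), or with M-CSF (50 ng/ml). FSL-1, a lipopeptide ligand of TLR2 with TLR6, was used to obtain multinucleated giant cells, and nutlin-3a, which frees p53 from Mdm2, to raise active p53. All groups share the M-CSF preculture, but the labels do not say if FSL-1 cultures kept M-CSF, so both agents may differ between those groups. RNA came from sorted cells, with no gate given, and no label says that the 2 arrays of a group came from separate animals or cultures; the p-values measure the spread between arrays, which may be technical.

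All values are log2 levels per probe set. Across genes, replicate arrays correlated at 0.9929 to 0.9951, and arrays from different groups at 0.9788 to 0.9858. All 8 macrophage markers, among them Csf1r, Adgre1 and Cd68, lay above the median level of all genes (5.51) in every group. Of 9 neutrophil markers 8 lay below that median in every group, as did 5 of 7 fibroblast and stromal, 3 of 4 dendritic and 5 of 5 lymphocyte markers. The log2 of the summed levels of the fibroblast list was 8.04 to 8.11 in FSL-1 + nutlin-3a, 8.38 to 8.65 in FSL-1 and 8.16 to 8.27 in M-CSF, and that of the neutrophil list 8.15 to 8.25, 8.30 to 8.31 and 7.78 in the same order of groups; the macrophage list stayed between 14.87 and 14.98 on the 6 arrays, the dendritic list between 6.94 and 7.19 and the lymphocyte list between 6.45 and 6.66. The part of such cells in the results was not tested. In these bulk samples, fewer cells of a type and less RNA per cell cannot be told apart.

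The cell-surface inhibitor Cd55 was by far the most changed of the 8 genes. Its log2 level was 9.08 and 8.96 in FSL-1 + nutlin-3a, 9.01 and 8.88 in FSL-1, and 4.85 and 4.17 in M-CSF. The 4 arrays with FSL-1 lay close together and far above both M-CSF arrays, and the 2 M-CSF arrays differed most from each other. The level was 21.6-fold higher in FSL-1 than in M-CSF (log2 change 4.44, SE 0.208, 95% interval 3.95 to 4.92, n = 2 each) and 22.8-fold higher in FSL-1 + nutlin-3a than in M-CSF (4.51, SE 0.208), the 7th and 4th highest of all 22180 changes. These changes are given as a description, without a test, because Cd55 was chosen with the first of them known. The M-CSF level (mean 4.51 ± 0.48, SD, n = 2) was near 4.26, the median of probe sets without a gene name, and without a detection call the size of the fold rests on a level that may be background. Leaving out any 1 array gave log2 changes of 4.10 to 4.78 for FSL-1 against M-CSF.

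Adding nutlin-3a left no detectable change in Cd55: the log2 change against FSL-1 was 0.08 (95% interval -0.41 to 0.56, limma adjusted p = 0.883), and the 2 groups overlapped. At this precision a rise of up to 1.47-fold or a decrease of up to 1.32-fold lies within the interval. The FSL-1 arrays used here also entered the change that chose Cd55, so this comparison is not independent of that choice. In order of level, FSL-1 + nutlin-3a and FSL-1, which did not differ beyond their spread, stood above M-CSF.

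**Figure D1:**
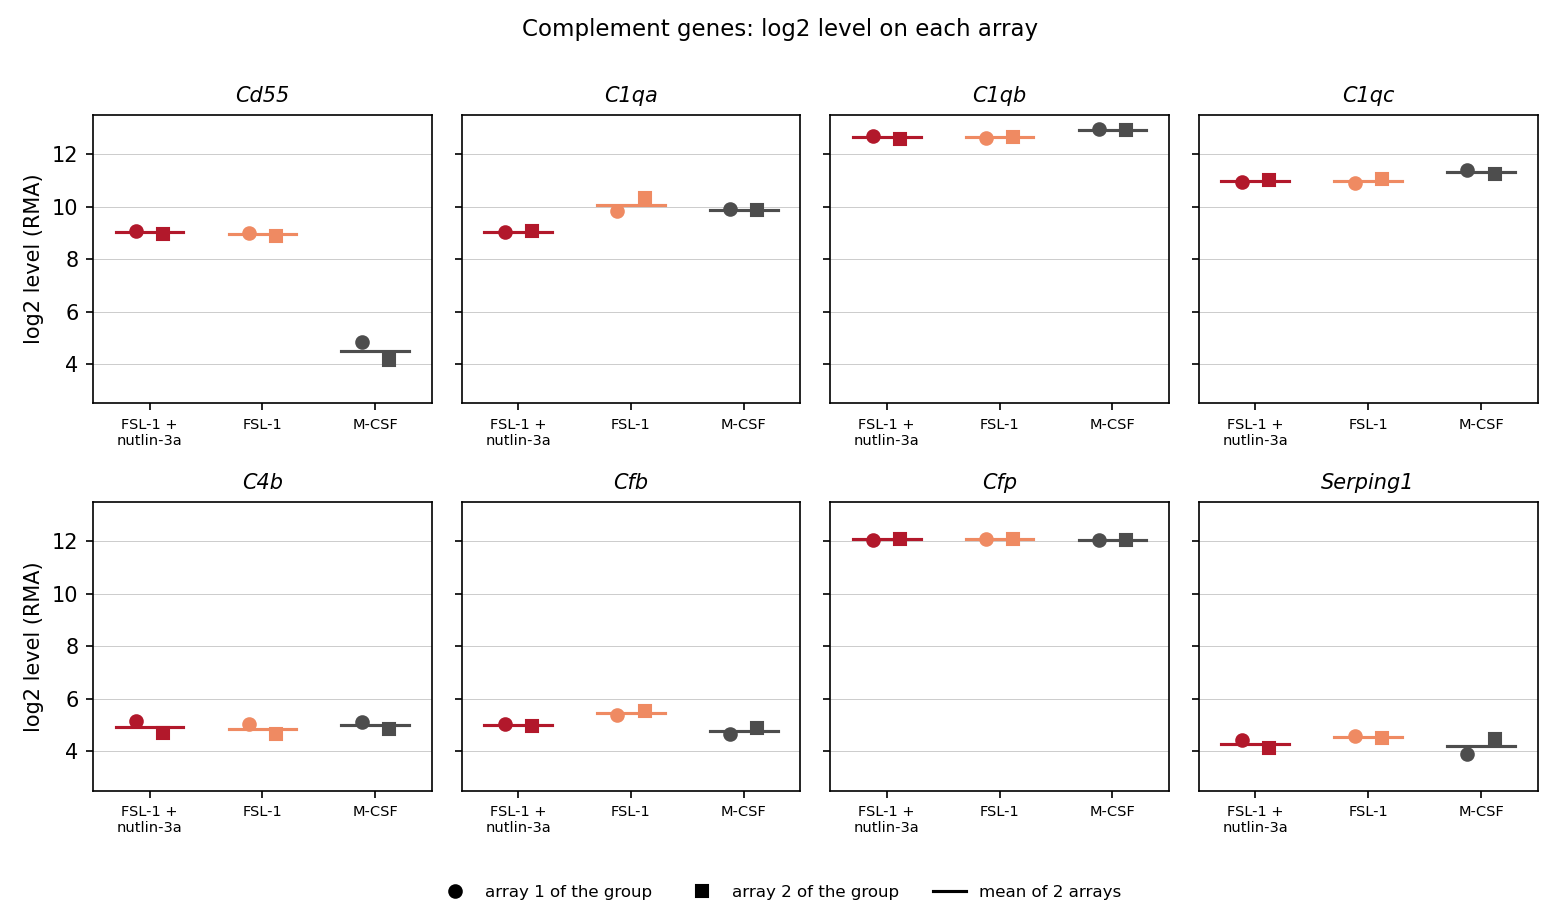
Log2 level of the 8 complement genes on each array (circle and square, arrays 1 and 2 of a group; line, mean of 2). Cd55 stands at 8.88 to 9.08 on the 4 arrays with FSL-1 against 4.17 and 4.85 in M-CSF, while Cfp is level in all groups.

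The RefSeq promoter windows (GRCm38.p6, 250 bases before to 50 after the start) of Cd55 and of the neighbouring genes C1qb and C1qc are shown because Cd55 carries the largest change and the C1q pair had near-equal log2 changes. They lie on the minus strand at chr1:130462695-130462994, chr4:136886151-136886450 and chr4:136892865-136893164, and are written 5′ to 3′ along the gene; of the 8 genes, Cfp also had a window, and C1qa, C4b, Cfb and Serping1 were not matched. A set of 4 motifs was searched on both strands. GGGA, 3 bases of any kind and TCC is from the NF-kB consensus. GAAA, 2 bases of any kind and GAAA is from interferon response elements. TTCNNNGAA is from STAT sites, and TTGCNNCAA was searched under the name C/EBP. The 4 motifs occur in 4.59%, 3.44%, 8.3% and 2.08% of 32851 promoter windows. TTGCNNCAA is longer than the C/EBP palindrome and cannot match it, so its matches or their absence say nothing about C/EBP sites.
Cd55: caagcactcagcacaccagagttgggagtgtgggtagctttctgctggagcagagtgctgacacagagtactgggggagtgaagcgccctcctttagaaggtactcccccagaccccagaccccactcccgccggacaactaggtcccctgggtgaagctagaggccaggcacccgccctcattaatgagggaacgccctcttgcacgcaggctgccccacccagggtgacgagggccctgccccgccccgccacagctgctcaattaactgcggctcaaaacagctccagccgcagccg
C1qb: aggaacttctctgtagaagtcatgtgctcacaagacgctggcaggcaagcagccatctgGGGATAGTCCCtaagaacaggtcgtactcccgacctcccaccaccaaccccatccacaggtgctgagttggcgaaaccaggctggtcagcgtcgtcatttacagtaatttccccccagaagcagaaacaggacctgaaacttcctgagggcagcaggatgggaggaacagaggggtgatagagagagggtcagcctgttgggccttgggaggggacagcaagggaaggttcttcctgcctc
C1qc: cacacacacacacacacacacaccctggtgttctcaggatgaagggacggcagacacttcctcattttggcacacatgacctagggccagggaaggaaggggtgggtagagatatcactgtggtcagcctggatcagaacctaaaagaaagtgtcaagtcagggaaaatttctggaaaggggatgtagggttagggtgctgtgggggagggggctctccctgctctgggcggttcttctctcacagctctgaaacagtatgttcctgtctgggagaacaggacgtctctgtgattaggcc
The capitals in C1qb mark 2 overlapping matches to the NF-kB letters, 1 on each strand, which begin 191 and 190 bases before the start. Cd55, C1qc and Cfp had no match to any of the 4 motifs, which says only that these letters are not in these windows.

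None of the 3 genes on either side of Cd55 passed the test in any of the 3 comparisons (limma; gene order from RefSeq, GRCm38.p6). Of all genes 6.86%, 6.5% and 9.51% passed in these comparisons, so the lack of calls does not set these few genes apart. Thsd7b, Cd55b, Zp3r and C4bp also had group means below the median of all genes (5.51). Cd55b, the transmembrane copy of the gene that lies beside it, had log2 levels of 4.66 and 4.51 in FSL-1 + nutlin-3a, 4.09 and 4.65 in FSL-1, and 4.20 and 4.51 in M-CSF. The groups overlapped in all 3 comparisons, and the change with FSL-1 was 0.01 (SE 0.198, adjusted p = 0.991, limma). Zp3r and C4bp, the next genes on the other side, had changes of -0.07 (adjusted p = 0.862) and 0.07 (adjusted p = 0.83) with FSL-1, and Cxcr4, further along on the side of Cd55b, -0.27 (adjusted p = 0.337). Cd55 and Cd55b are similar in sequence, so some sharing of signal between their probe sets cannot be told apart from their own levels.

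Of the 5 further membrane regulators measured, only Cd59a, which blocks assembly of the membrane attack pore, passed the test. It had log2 levels of 9.65 and 9.49 in FSL-1 + nutlin-3a, 9.17 and 9.17 in FSL-1, and 8.64 and 8.44 in M-CSF. The 3 groups did not overlap, with M-CSF lowest. It rose 1.55-fold with FSL-1 against M-CSF (log2 change 0.63, SE 0.126, adjusted p = 0.0251) and 2.05-fold in FSL-1 + nutlin-3a relative to M-CSF (1.03, adjusted p = 0.00201). Leaving out any 1 of the 4 arrays compared ended the first call (adjusted p 0.0367 to 0.141 over the 6 fits that leave out an array), and none of these fits ended the second. The change in FSL-1 + nutlin-3a against FSL-1 was 0.40 (adjusted p = 0.112), and it passed with trend and robust moderation (adjusted p = 0.023) and without dim genes (adjusted p = 0.0341; range over 14 alternatives 0.023 to 0.342). Dim genes are those whose brighter group mean lay below the median of such means over all genes. Cd59b, the copy of Cd59a, had 0.28 with FSL-1 (limma adjusted p = 0.215). In FSL-1 + nutlin-3a relative to M-CSF it had 0.40 (limma adjusted p = 0.075), and these groups did not overlap. Cr1l, the rodent regulator Crry, had levels of 8.37 to 8.65 on all 6 arrays and a change of -0.15 with FSL-1 (95% interval -0.43 to 0.14, limma adjusted p = 0.58). Cd46 had -0.23 (limma adjusted p = 0.538). The mean levels of Cd46 (4.58), Cd59b (4.85) and Cd55b (4.44) over the 6 arrays lie below the median of all genes (5.51). Those of Cd46 and Cd55b are near the median of probe sets without a gene name (4.26).

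**Figure D2:**
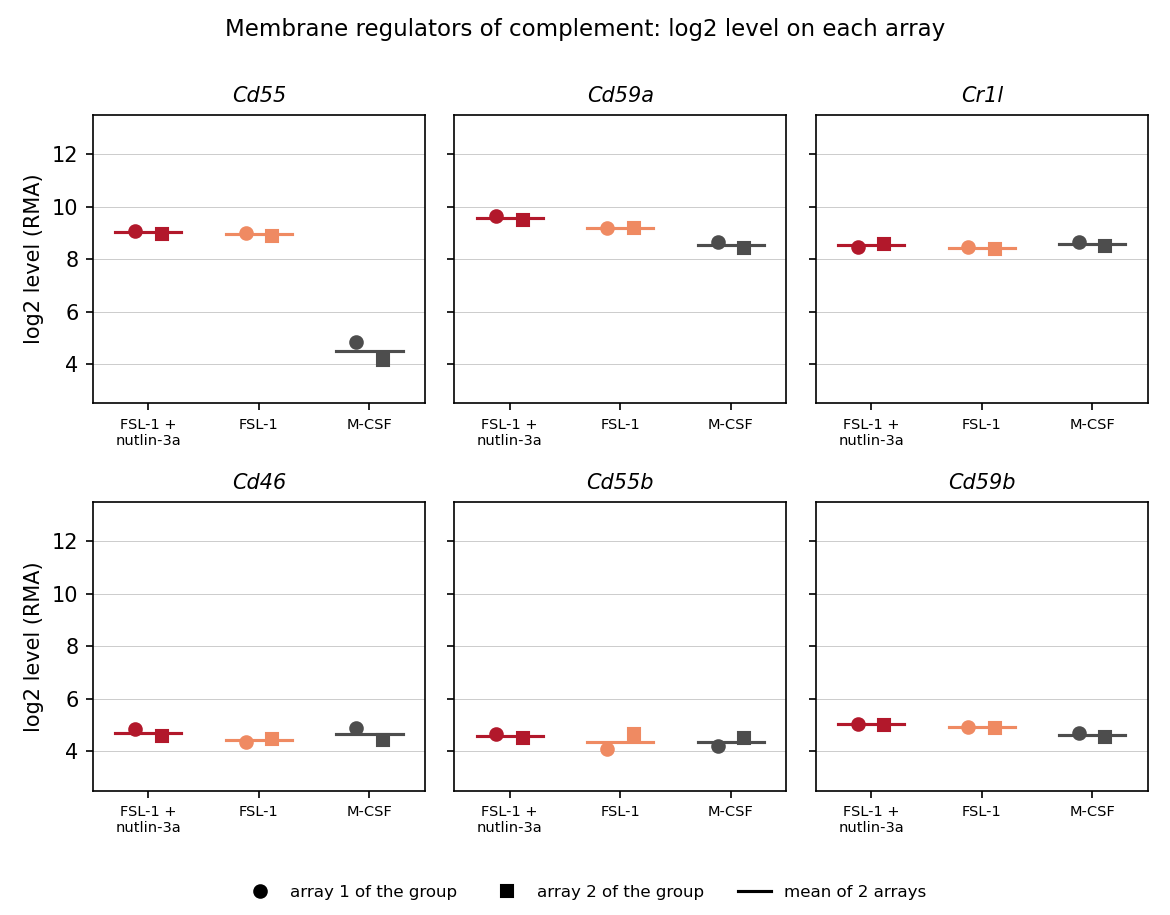
Log2 level of 6 membrane regulators of complement on each array (circle and square, arrays 1 and 2; line, mean of 2). Cd55 is far higher with FSL-1. Cd59a is lowest in M-CSF and highest in FSL-1 + nutlin-3a, though its step from FSL-1 to FSL-1 + nutlin-3a did not pass. Cd46, Cd55b, Cd59b and Cr1l gave no call.

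Among the C1q chain genes C1qa passed the test and C1qb and C1qc did not. C1qa fell with nutlin-3a, while C1qb and C1qc had near-equal means in FSL-1 + nutlin-3a and FSL-1, both below the M-CSF mean. C1qa had log2 levels of 9.03 and 9.06 in FSL-1 + nutlin-3a, 9.84 and 10.32 in FSL-1, and 9.90 and 9.86 in M-CSF. Both arrays with nutlin-3a lay below the other 4, and the 2 FSL-1 arrays spanned the M-CSF values. C1qa was 2.04-fold lower in FSL-1 + nutlin-3a than in FSL-1 (log2 change -1.03, SE 0.162, 95% interval -1.41 to -0.65, limma adjusted p = 0.0113) and 1.78-fold lower than in M-CSF (-0.83, SE 0.162, adjusted p = 0.0173). Leaving out FSL-1 replicate 2, the higher of its arrays, or either FSL-1 + nutlin-3a array ended the call against FSL-1; the change was -1.27 to -0.79 and the adjusted p 0.0142 to 0.067 over the 6 fits that leave out an array. Each of the 4 arrays compared ended the call against M-CSF when left out (adjusted p 0.00944 to 0.0924 over the 6 fits). FSL-1 against M-CSF gave 0.20 (95% interval -0.18 to 0.58, adjusted p = 0.565), and its sign turned without FSL-1 replicate 2 (-0.04).

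C1qb had log2 levels of 12.70 and 12.58 in FSL-1 + nutlin-3a, 12.62 and 12.66 in FSL-1, and 12.96 and 12.92 in M-CSF. C1qc had 10.94 and 11.02 in FSL-1 + nutlin-3a, 10.91 and 11.06 in FSL-1, and 11.38 and 11.26 in M-CSF. For both genes the M-CSF arrays lay above the other 4 and the 2 groups with FSL-1 overlapped. With FSL-1 against M-CSF, C1qb had -0.29 (SE 0.114, adjusted p = 0.186) and C1qc -0.34 (SE 0.12, adjusted p = 0.154), which did not pass. With trend and robust moderation of the spread both fell (adjusted p = 0.00568 and 0.0141), and C1qc also did when dim genes were left out (adjusted p = 0.0493); over all 14 alternatives adjusted p ran from 0.00568 to 0.483 for C1qb and from 0.0141 to 0.504 for C1qc. FSL-1 + nutlin-3a against M-CSF, which shares the M-CSF arrays, gave -0.30 (adjusted p = 0.16, range over alternatives 0.00419 to 0.403) and -0.34 (adjusted p = 0.132, range 0.0115 to 0.386), and both again passed with trend and robust moderation. Of the 8 macrophage markers, Csf1r fell with FSL-1 against M-CSF (-0.87, limma adjusted p = 0.00858), and Adgre1 (0.56, adjusted p = 0.0253) and Itgam rose. The others did not pass, from Mertk (-0.76, adjusted p = 0.0629) to Fcgr1 (0.52, adjusted p = 0.126). The part of these markers in the C1qb and C1qc values was not tested.

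With nutlin-3a against FSL-1 the changes of C1qb (-0.0022, 95% interval -0.27 to 0.26) and C1qc (0.00054, 95% interval -0.28 to 0.28) were near 0, and neither interval reached the upper end of that of C1qa (-0.65). The difference between chains was not tested. The 3 genes are next to each other in the order C1qb, C1qc, C1qa on chromosome 4, and Epha8, the next gene after C1qa, had 0.10 (adjusted p = 0.677). Of the 8 macrophage markers, the Fc receptor Fcgr1 (-1.58, adjusted p = 0.00228) and Cd14 (-1.12, adjusted p = 0.00235) also fell with nutlin-3a. The other 6 did not pass, from Itgam (-0.45, adjusted p = 0.0651) to Csf1r (0.40, adjusted p = 0.126) and Mertk (0.55, adjusted p = 0.153). Of the 7 fibroblast and stromal markers, only Col1a2 passed with nutlin-3a, and it fell by 0.80 (limma adjusted p = 0.0292). The others ran from Col1a1 (-0.70, adjusted p = 0.0674) to Pdgfrb (0.18, adjusted p = 0.495). The part of Col1a2, and that of the other markers, in the C1qa result was not tested.

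**Figure D3:**
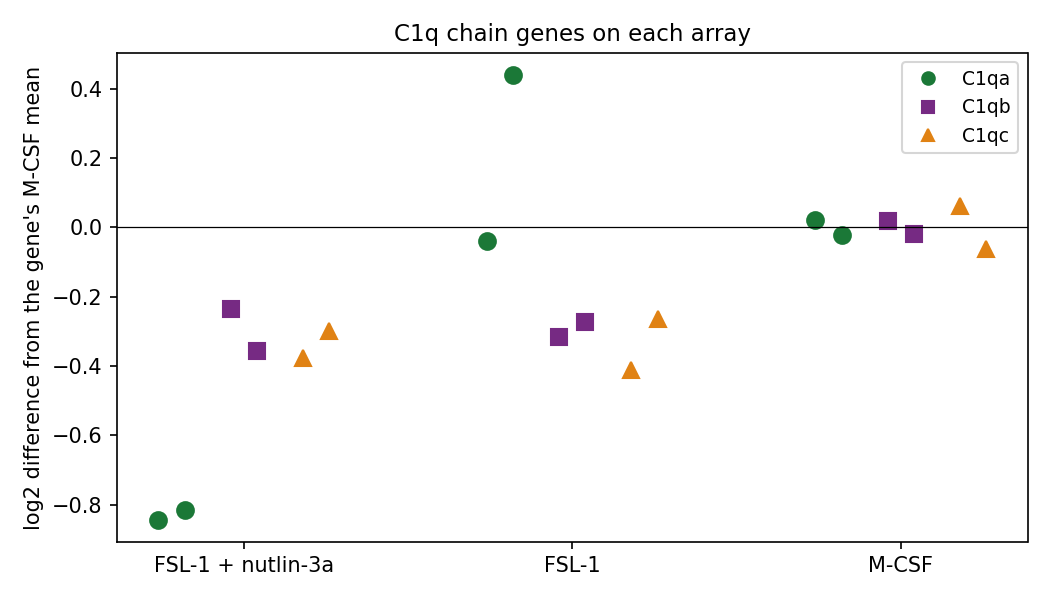
Log2 difference of each C1q chain gene from its own M-CSF mean on each array (array 1 left, array 2 right of each pair). C1qa averages -0.83 in FSL-1 + nutlin-3a and 0.20 in FSL-1, whereas C1qb and C1qc lie 0.2 to 0.4 below their M-CSF means in both groups with FSL-1.

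The alternative route gave a small rise and a flat line. Cfb, the protease subunit of the C3-cleaving enzyme, had log2 levels of 5.04 and 4.95 in FSL-1 + nutlin-3a, 5.36 and 5.53 in FSL-1, and 4.65 and 4.87 in M-CSF. The FSL-1 arrays were highest and no 2 groups overlapped. Cfb rose 1.61-fold with FSL-1 against M-CSF (log2 change 0.69, SE 0.131, 95% interval 0.38 to 0.99, adjusted p = 0.021), and leaving out M-CSF replicate 1 or either FSL-1 array ended the call (adjusted p 0.036 to 0.148 over the 6 fits that leave out an array). The lower level in FSL-1 + nutlin-3a than in FSL-1 (-0.45, SE 0.131, adjusted p = 0.0913) did not pass, nor did FSL-1 + nutlin-3a against M-CSF (0.24, adjusted p = 0.325). The 3 group means lie below the median of all genes, and 1 FSL-1 array lies just above it. C2, the classical counterpart that neighbours Cfb, had -0.18 with FSL-1 (adjusted p = 0.436).

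Cfp, which stabilises that enzyme, had log2 levels of 12.05 and 12.09 in FSL-1 + nutlin-3a, 12.09 and 12.08 in FSL-1, and 12.05 and 12.06 in M-CSF. All 6 arrays were within a few hundredths of each other. The change was 0.03 with FSL-1 against M-CSF (95% interval -0.22 to 0.28, adjusted p = 0.927) and -0.02 with nutlin-3a against FSL-1 (95% interval -0.27 to 0.23, adjusted p = 0.955), so changes beyond 1.22-fold lie outside both intervals.

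C4b, the classical component cleaved after C1, and Serping1, the C1 inhibitor, were dim and gave no call. C4b had log2 levels of 5.17 and 4.69 in FSL-1 + nutlin-3a, 5.03 and 4.66 in FSL-1, and 5.10 and 4.87 in M-CSF. The replicates of a group differed more than the group means, and the groups overlapped in every comparison (adjusted p 0.782 to 0.913). Its near-copy C4a, whose signal may be shared, had 0.11 with FSL-1 (adjusted p = 0.862) and 0.39 with nutlin-3a (adjusted p = 0.378). Serping1 had 4.43 and 4.14 in FSL-1 + nutlin-3a, 4.60 and 4.50 in FSL-1, and 3.90 and 4.48 in M-CSF. These are near the level of probe sets without a gene name (4.26), and the changes were 0.36 with FSL-1 (95% interval -0.10 to 0.82, adjusted p = 0.365) and -0.26 with nutlin-3a (95% interval -0.72 to 0.19, adjusted p = 0.513).

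**Figure D4:**
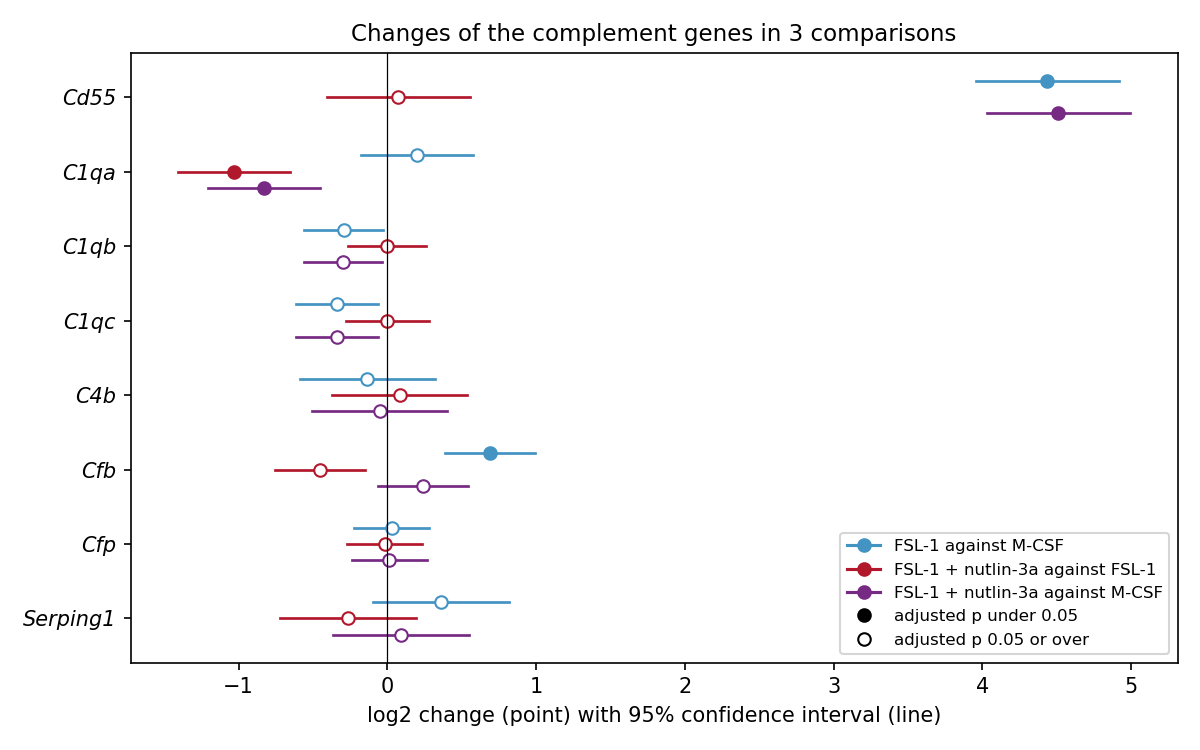
Log2 change of each of the 8 genes in 3 comparisons (point) with its 95% confidence interval (line); filled points have a limma adjusted p under 0.05, and those of Cd55 are a description. Cd55 lies near 4.4 to 4.5 in both comparisons with M-CSF and near 0 with nutlin-3a, C1qa lies below 0 in both comparisons of FSL-1 + nutlin-3a, and Cfb above 0 with FSL-1.

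Counted together, 2 of the 8 genes rose with FSL-1 against M-CSF (Cd55 and Cfb) and 0 fell, where 3.91% of all genes rose and 2.95% fell, 6.86% in all (limma, adjusted p under 0.05); Cd55 is counted although this change chose it, and supports nothing. At an unadjusted p under 0.05, 2 were lower, C1qb and C1qc. The share of all genes at that unadjusted limit was not counted in any comparison. The median log2 change of the 8 genes was 0.11, against -0.01 over all genes. With nutlin-3a against FSL-1, 1 fell (C1qa) and 0 rose (limma; at an unadjusted p under 0.05, 2 lower and 0 higher), where 4.12% of all genes fell and 2.38% rose, 6.5% in all, and the median was -0.01 against 0.02 over all genes. In FSL-1 + nutlin-3a relative to M-CSF 1 rose (Cd55) and 1 fell (C1qa), where 4.58% of all genes rose and 4.94% fell, 9.51% in all, with a median of -0.02 against 0.02; Cd55 supports nothing here either, since the same M-CSF arrays enter. No low values were filtered out of these fits; 5 of the 8 genes lay above the limit when dim genes were left out. The first 2 comparisons share the FSL-1 arrays and the third shares arrays with each.

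A list of 43 further complement genes, of which 40 were measured, was counted in the same way. The share of all genes at an unadjusted p under 0.05 was not counted, so the unadjusted counts below show no excess or lack. With FSL-1 against M-CSF, 4 rose and 1 fell, where 3.91% and 2.95% of all genes did, with 6 higher and 5 lower at an unadjusted p under 0.05 and a median log2 change of 0.01 against -0.01 over all genes. With nutlin-3a against FSL-1, 2 rose and 0 fell, where 2.38% and 4.12% of all genes did, with 5 higher and 2 lower at an unadjusted p under 0.05 and a median of 0.13 against 0.02. In FSL-1 + nutlin-3a relative to M-CSF 4 rose and 2 fell, where 4.58% and 4.94% of all genes did, with 11 higher and 3 lower at an unadjusted p under 0.05 and a median of 0.16 against 0.02. Of the 40 genes, 28 had a mean below the median level of all genes, including all 7 terminal components, all 3 classical proteases and 6 of 7 lectin pathway genes, but only 2 of 10 receptors. The other genes of the list were not analysed here.

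Integrin receptors for C3 fragments gave several of the calls. Itgam, the alpha chain of complement receptor 3, which binds inactivated C3b, had log2 levels of 11.44 and 11.28 in FSL-1 + nutlin-3a, 11.78 and 11.84 in FSL-1, and 11.06 and 11.08 in M-CSF. The FSL-1 arrays were highest and the M-CSF arrays lowest. It rose with FSL-1 against M-CSF (0.74, SE 0.117, adjusted p = 0.00987), which did not hold without M-CSF replicate 1 or either FSL-1 array. Of the 9 neutrophil markers, S100a8 (2.40, adjusted p = 0.000825) and Cxcr2 (0.60, adjusted p = 0.0467) also rose with FSL-1, while the other 7 did not pass, from Elane (-0.45, adjusted p = 0.0887) to S100a9 (0.43, adjusted p = 0.169). Their part in the Itgam result was not tested. The lower level with nutlin-3a (-0.45, adjusted p = 0.0651) did not pass, though it did with trend and robust moderation (adjusted p = 0.00159) and without dim genes (adjusted p = 0.0159; range over 14 alternatives 0.00159 to 0.272). Itgax, the alpha chain of complement receptor 4, had 6.91 and 6.62 in FSL-1 + nutlin-3a, 5.77 and 6.00 in FSL-1, and 5.80 and 5.76 in M-CSF. Only the nutlin-3a arrays stood above the others. Itgax rose 1.84-fold with nutlin-3a against FSL-1 (0.88, SE 0.142, adjusted p = 0.0123) and 1.98-fold against M-CSF (0.99, adjusted p = 0.00433); leaving out either FSL-1 array or FSL-1 + nutlin-3a replicate 1 ended the first call, and no left-out array ended the second. Itgb2, the beta chain of both receptors, had 0.07 with FSL-1 (adjusted p = 0.81) and 0.24 with nutlin-3a (adjusted p = 0.258).

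Of the receptors for the released fragments, C5ar2 passed the test and C5ar1 and C3ar1 did not. C5ar2, the second C5a receptor, had log2 levels of 9.12 and 8.99 in FSL-1 + nutlin-3a, 8.33 and 8.32 in FSL-1, and 8.95 and 8.76 in M-CSF. The FSL-1 arrays were lowest. It fell with FSL-1 against M-CSF (-0.53, SE 0.123, adjusted p = 0.0422), which each of the 6 arrays ended when left out, and rose with nutlin-3a against FSL-1 (0.73, SE 0.123, adjusted p = 0.0143), which did not hold without either FSL-1 array or FSL-1 + nutlin-3a replicate 1. Both changes use the same FSL-1 arrays, and FSL-1 + nutlin-3a against M-CSF gave 0.20 (adjusted p = 0.386). C5ar1, the main C5a receptor, had -0.02 with FSL-1 (95% interval -0.31 to 0.28, adjusted p = 0.968) and 0.20 with nutlin-3a (adjusted p = 0.419). C3ar1, the C3a receptor, had 0.10 (adjusted p = 0.713) and 0.13 (adjusted p = 0.609). Vsig4, a C3b receptor of resident macrophages, was listed at 3.05 to 3.65 on the 6 arrays, below the median of probe sets without a gene name.

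The other calls were spread over the list. C1rl, a C1r-like serine protease, rose by 0.80 with FSL-1 against M-CSF (SE 0.136, adjusted p = 0.0133), which did not hold without either M-CSF array or FSL-1 replicate 2, and 2.07-fold in FSL-1 + nutlin-3a relative to M-CSF (1.05, adjusted p = 0.0026). C1qbp, a mostly mitochondrial protein that can bind C1q, rose by 0.63 with FSL-1 (adjusted p = 0.0426), a call that held without M-CSF replicate 2 but not without any 1 of the other 5 arrays. In FSL-1 + nutlin-3a relative to M-CSF, Fcna, the plasma-type ficolin of the lectin route, fell by 0.60 (adjusted p = 0.0403), Cd93, a lectin-like membrane protein once proposed as a C1q receptor, fell by 0.60 (adjusted p = 0.0307), and C1ra, a protease of the C1 complex, rose by 0.51 (adjusted p = 0.0342). Of the fits that leave out 1 array, the first 2 calls were each kept in 1 of 6 and the C1ra call in 0 of 6. The 7 terminal components, all below the median level of all genes, gave 0 calls in any comparison. Of all genes, 6.86%, 6.5% and 9.51% were called in FSL-1 against M-CSF, nutlin-3a against FSL-1 and FSL-1 + nutlin-3a against M-CSF. At these shares 0 of 7 does not set the terminal components apart. With FSL-1, 1 was lower at an unadjusted p under 0.05, a limit for which no share over all genes was counted.

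**Figure D5:**
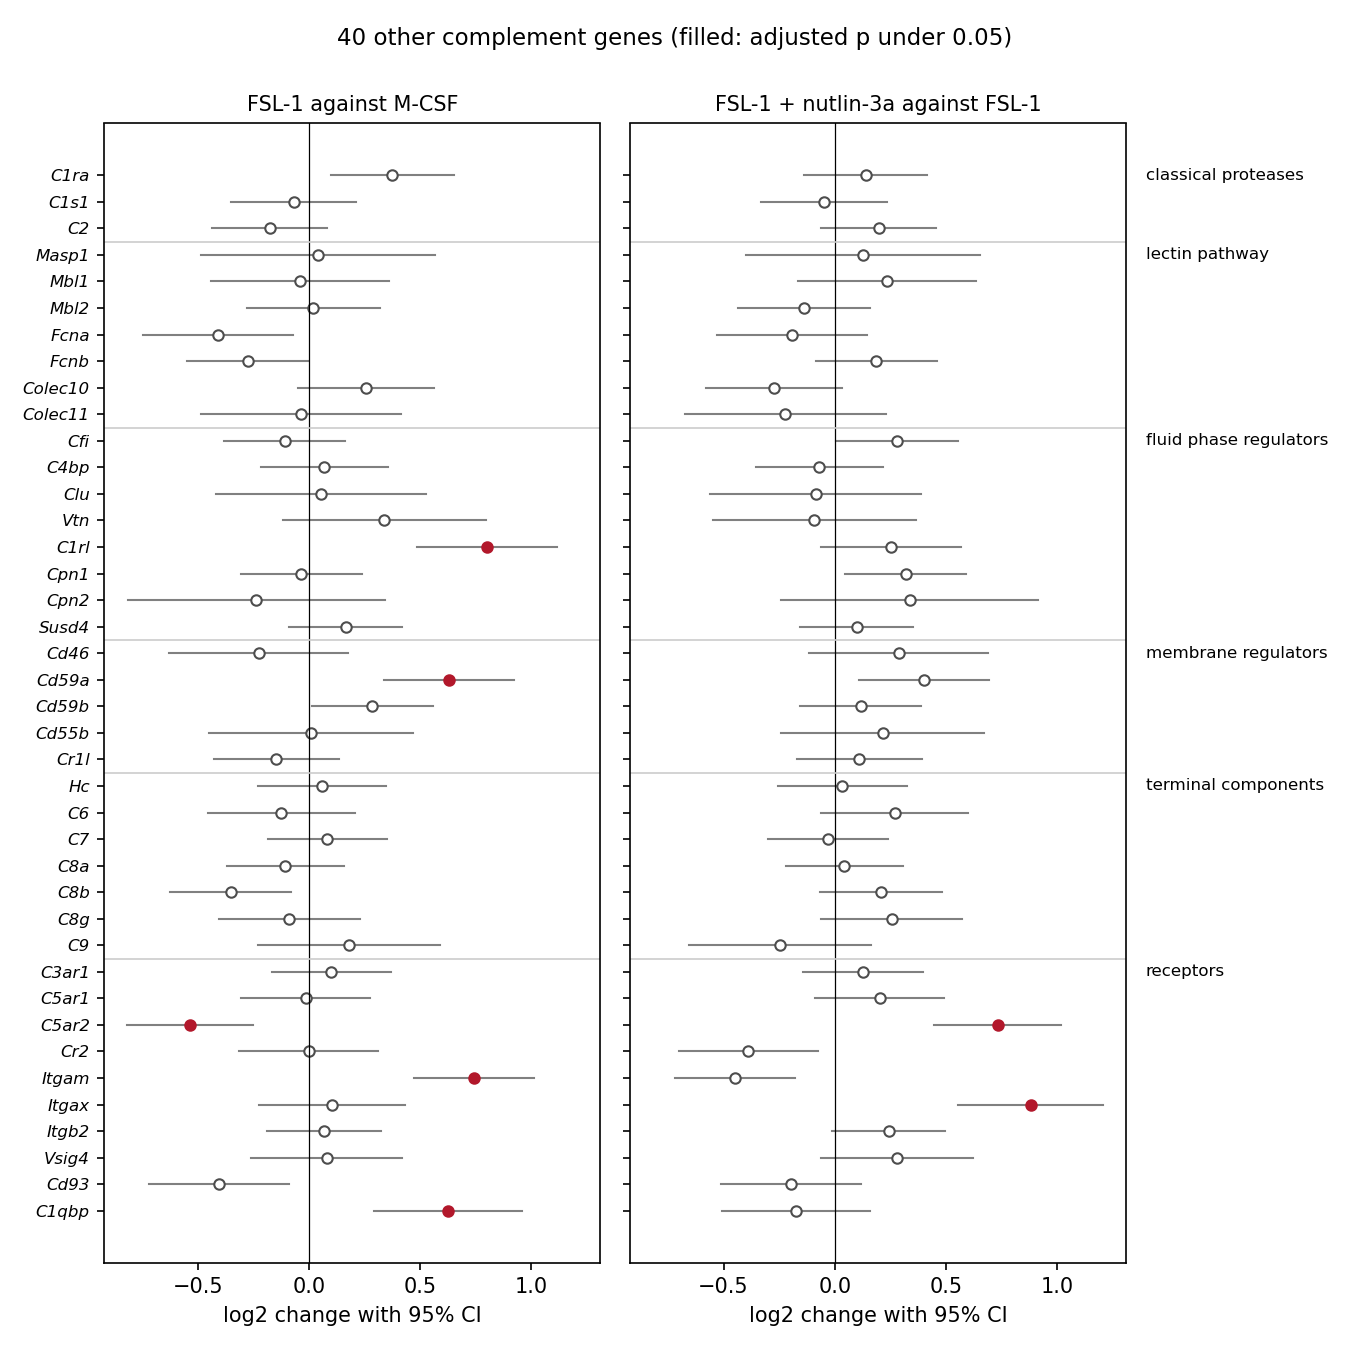
Log2 change (point) with 95% confidence interval (line) of the 40 other complement genes, ordered by role, for FSL-1 against M-CSF (left) and FSL-1 + nutlin-3a against FSL-1 (right). Filled points, adjusted p under 0.05, are C1rl, Cd59a, Itgam, C1qbp and C5ar2 on the left and C5ar2 and Itgax on the right.

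Genes with the profile most like that of Cd55 were found by the root mean square difference of log2 levels over the 6 arrays, each gene centred on its own mean, among the 140 other genes whose range was at least that of Cd55 divided by 2 (range of Cd55 4.91). The nearest were Lancl3 (difference 0.34; its other probe set differed by 0.04 between FSL-1 and M-CSF), the scavenger receptor Marco (0.35), the lectin-like receptor Klra2 (0.38), the metalloproteinase Mmp14 (0.39) and the cystine importer subunit Slc7a11 (0.40). Their log2 changes with nutlin-3a against FSL-1 were -0.27, 0.45, -0.17, 0.30 and 0.64. Among 6343 genes the profiles most like that of C1qa were those of Mtmr11 (difference 0.10), Col1a2 (0.12), Cdkn2aipnl (0.13), Cenpk (0.13) and Tbrg1 (0.13), with changes of -1.11, -0.80, -0.98, -1.13 and -0.96 with nutlin-3a. The other probe set of Slc7a11 differed by 1.32 between FSL-1 and M-CSF, against 4.70 at the one used. That of Col1a2 differed by -0.38 with nutlin-3a and by -0.15 between FSL-1 and M-CSF, where the one used gave 0.23. These lists describe 6 arrays that share 3 group means and carry no test. The genes were picked for profiles like those of Cd55 and C1qa on the same arrays. Changes like those of Cd55 and C1qa therefore follow from the choice and support nothing.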

How the data were processed

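The deposited values are log2 levels per probe set. Per the submitters' processing notes, the authors used Affymetrix Expression Console 1.4 and RMA, a method that subtracts background, gives all arrays 1 distribution and combines the probes of a set, so a change shared by most genes would be hidden. The genome build behind the annotation and detection calls are not given in the sources used here. Per the labels' protocols, RNA of sorted cells was amplified with a NuGEN Ovation PicoSL WTA kit.

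Of 34390 probe sets, 23521 name 1 gene, which gave 22180 genes; the probe set with the highest mean was kept. All 6 arrays entered 1 fit per gene with limma 3.58.1 (R 4.3.3, lmFit, eBayes, 3 residual and 4.88 prior degrees of freedom). Benjamini-Hochberg adjustment ran over all genes, with a threshold of 0.05. The fit was also run on simulated arrays of independent values. Its outcome is not given and is no support for the calls here. The only precision check is between 2 arrays per group; their number limits every value. The members and lists were chosen with earlier results of these data known. Named are the 9 members, called genes of the pathway list, fixed receptors and regulators, and for Cd55 and C1qa the 5 genes of nearest profile; neighbouring genes, C4a and the named cell type markers were added after their values were seen. Alternatives are given in the closing section. Promoter windows are from RefSeq (GRCm38.p6). Figures were drawn with matplotlib 3.10.9.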

Additional observations from a re-analysis of the deposited data

How the results depend on the processing

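Alternatives were trend and robust moderation, a second quantile normalization, centring every array, averaging probe sets per gene, leaving out dim genes, fitting the compared groups alone, a replicate block and leaving out each array; a lone array left in a group is assumed to vary like the others. Leaving aside Cd55, the calls on Cd59a, C1rl and Itgax in FSL-1 + nutlin-3a relative to M-CSF were kept under all of them. Calls kept least often were C1ra (3 of 13 alternatives), Fcna (6 of 14) and Cd93 (8 of 14) in FSL-1 + nutlin-3a relative to M-CSF, and C5ar2 (4 of 14) and C1qbp (6 of 14) in FSL-1 against M-CSF. Depth of signal limits C4b, Cfb and Serping1, whose group means lie below the median of all genes. Background correction and scan batches could not be varied.

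The 2 members called with FSL-1 against M-CSF became 4 with trend and robust moderation and 1 to 2 when an array was left out; the 2 in FSL-1 + nutlin-3a relative to M-CSF became 4 and 1 to 2; the 1 with nutlin-3a against FSL-1 became 0 to 1 when an array was left out. The 5 other pathway genes called with FSL-1 became 3 in the compared groups alone, 3 with the M-CSF numbers crossed in the replicate block (chosen after seeing the data) and 0 to 3 when an array was left out. The 2 called with nutlin-3a became 5 with trend and robust moderation, 4 without dim genes and 0 to 2 when an array was left out. The 6 in FSL-1 + nutlin-3a relative to M-CSF became 10 with trend and robust moderation, 3 in the compared groups alone and 3 to 4 when an array was left out. The cause of these shifts was not tested, except that leaving out arrays or groups leaves fewer samples. The share of all genes called under each alternative was not counted. These shifts therefore show nothing particular to complement genes. The member counts in both comparisons with M-CSF include Cd55, which was chosen by its change and supports nothing here.

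Signs turned only in changes that passed no test. A second quantile normalization gave 0.0023 for C1qb and 0.0018 for Cfp with nutlin-3a, and -0.03 for Cfp in FSL-1 against M-CSF (-0.0316) and in FSL-1 + nutlin-3a relative to M-CSF (-0.0299). Centring gave -0.0137 for C1qc with nutlin-3a and -0.012 for Cfp in FSL-1 + nutlin-3a relative to M-CSF. When an array was left out, values ran from -0.0382 to 0.4393 for C1qa with FSL-1, -0.0634 to 0.0589 for C1qb and -0.0739 to 0.0749 for C1qc with nutlin-3a, -0.322 to 0.0517 (FSL-1), -0.1546 to 0.3226 (nutlin-3a) and -0.2897 to 0.1874 (FSL-1 + nutlin-3a against M-CSF) for C4b, -0.0405 to 0.0058 (nutlin-3a) and -0.0113 to 0.0349 (FSL-1 + nutlin-3a against M-CSF) for Cfp, -0.1941 to 0.3836 for Serping1 in FSL-1 + nutlin-3a relative to M-CSF, and -0.0053 to 0.2161 for Itgax with FSL-1.

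The labels give the groups the same replicate numbers but nothing that they share. Deviations of replicate 1 from the group mean correlated across genes at -0.19 (FSL-1 and M-CSF), 0.02 (FSL-1 + nutlin-3a and M-CSF) and -0.02 (FSL-1 + nutlin-3a and FSL-1). With 2 arrays per group these values cannot tell whether arrays of different groups were paired, so any pairing is unknown. Under the replicate block, the members called were 2, 1 and 2 in the 3 comparisons, as without it, and the pathway genes 4, 2 and 4. The share of all genes called under the block was not counted. Cd55 is again in the member counts of both comparisons with M-CSF and supports nothing.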
